A study of Homo sapiens with 6 samples.

Results

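The 9 genes described here encode very large proteins that tie actin filaments, microtubules, intermediate filaments and the plasma membrane to one another. They were followed in RPMI-8402, an established line of human T-ALL, a leukaemia of immature T cells: PLEC, MACF1, DST, AHNAK, FLNA, TLN1, MYH9, SPTAN1 and SPTBN1. They were chosen by name, with earlier results of the same comparison known, so their own changes are given as a description and not as a test. All 9 members were found among 63677 genes by the gene name in the authors' deposited table and joined by gene identifier to the counts. PLEC and FLNA each had a further identifier with 0 counts in all 6 samples (ENSG00000261109 and ENSG00000269329), which was set aside.

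The cells carried Cas9 in both groups. In 3 samples, guide RNAs that direct Cas9 to MYC were turned on with doxycycline and RNA was taken at 72 hours, and 3 samples got DMSO, a solvent, in its place. Effects of doxycycline itself and of the guides therefore cannot be told apart. RNA was sequenced as strand-specific paired-end libraries. The labels give every sample the genotype MYC_KO and do not say whether replicates were separate cultures, so errors may be technical. MYC itself had 459, 431 and 431 CPM (read counts relative to library size, scaled between libraries with TMM) in doxycycline samples, against 409, 422 and 407 CPM in DMSO samples, and was not called (log2 fold change 0.09, SE 0.049, edgeR adjusted p = 0.160). A gene-level count reads small insertions and deletions only in part, so this checks the labels only in part.

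Libraries held 25819386 to 26214598 counts in doxycycline samples and 23121255 to 25412493 in DMSO samples. Of 15492 genes tested, 2137 were called higher and 2408 lower in doxycycline samples (edgeR quasi-likelihood test, adjusted p under 0.05), against 2871 and 1585 with upper-quartile scaling and 2758 and 1606 with library size alone. All 14 T lineage markers examined were expressed, at a summed level of 4325 to 4452 CPM in doxycycline samples and 4174 to 4389 CPM in DMSO samples. The 5 epithelial and 4 erythroid markers summed to under 1 CPM in every library, with EPCAM, KRT18, KRT19 and HBB at 0. The 5 B lineage markers summed to 16.2 to 17.1 CPM in doxycycline samples and 11.5 to 12.9 CPM in DMSO samples, with MS4A1 at 0. The 5 myeloid markers summed to 2.17 to 2.21 CPM in doxycycline samples and 1.07 to 1.27 CPM in DMSO samples, with none at 0 throughout. The 4 fibroblast markers summed to 48.0 to 53.6 CPM in doxycycline samples and 40.3 to 40.7 CPM in DMSO samples, nearly all of it COL1A1, with COL1A2 at 0, and the part of these markers in the results was not tested. DMSO replicate 2 lay farthest from the rest on the second principal component, followed on its side by doxycycline replicate 1, and the counts and medians that moved most without both are given beside them.

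Plakins such as plectin (PLEC), MACF1 and dystonin (DST) bind actin through a calponin homology domain pair and reach to microtubules or intermediate filaments through other domains. Spectrin is a tetramer of alpha (SPTAN1) and beta (SPTBN1) chains that lies as a mesh under the plasma membrane, and filamin A (FLNA) crosslinks actin into networks. Talin (TLN1) couples integrins to actin, non-muscle myosin IIA heavy chain (MYH9) pulls on actin, and AHNAK is a scaffold under the membrane. In T cells some of these proteins serve adhesion, migration and the immunological synapse.

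The members' transcripts are long. In GENCODE 29 the longest transcript of MACF1 has 24828 bases in 101 exons, that of DST 22431 bases in 98 exons, and that of AHNAK 18787 bases in 5 exons. PLEC follows at 15249 bases and SPTBN1 at 10226, while TLN1, FLNA, SPTAN1 and MYH9 have 8823, 8516, 7889 and 7554 bases. The longest coding sequence among all transcripts of the gene has 7592 codons in MACF1, 7461 in DST and 5890 in AHNAK. Even MYH9, the shortest, stood at percentile 91.2 of transcript length among tested genes, and MACF1 stood at percentile 99.9. GC content ran from 41.3% in DST, 46.0% in MACF1 and 49.3% in AHNAK to 62.2% in FLNA and 67.0% in PLEC. They lie on 8 chromosomes, with TLN1 and SPTAN1 sharing chromosome 9.

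The 250 bases before annotated starts were read for 8 of the 9 genes, in 13 windows from RefSeq on GRCh38.p14. They were searched on both strands for CACGTG, the letters MYC and its relatives are known to bind, for GGGCGG, and for the CArG box, which SRF, a known driver of actin genes, binds. CACGTG was in 1 of the 13 windows, that of DST, against 6.34% of all 35116 promoters of this length. The CArG box was likewise in 1 window, that of FLNA, against 1.16% of all promoters, and began 94 bases before the start. GGGCGG was in 9 of the 13 windows, against 42.6% of all promoters. No motif searched overlapped another in the capitals below, and a match is a description of letters only. These 2 windows are shown because they hold those letters, and that of AHNAK because its gene had the largest change. Capitals mark CACGTG in DST and the CArG box in FLNA, all 3 windows lie on the minus strand, and each reads 5′ to 3′.
DST, chr6:56954831-56955080: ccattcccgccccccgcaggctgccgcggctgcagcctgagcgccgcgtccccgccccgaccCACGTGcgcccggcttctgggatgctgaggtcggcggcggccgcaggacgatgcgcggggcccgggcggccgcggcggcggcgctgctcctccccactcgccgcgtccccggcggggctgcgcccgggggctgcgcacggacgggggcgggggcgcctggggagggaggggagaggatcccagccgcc
FLNA, chrX:154374635-154374884: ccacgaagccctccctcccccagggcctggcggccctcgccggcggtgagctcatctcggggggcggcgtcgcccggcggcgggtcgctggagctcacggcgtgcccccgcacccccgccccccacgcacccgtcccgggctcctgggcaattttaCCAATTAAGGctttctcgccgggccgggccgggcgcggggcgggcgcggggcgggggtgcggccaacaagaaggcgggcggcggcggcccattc
AHNAK, chr11:62545827-62546076: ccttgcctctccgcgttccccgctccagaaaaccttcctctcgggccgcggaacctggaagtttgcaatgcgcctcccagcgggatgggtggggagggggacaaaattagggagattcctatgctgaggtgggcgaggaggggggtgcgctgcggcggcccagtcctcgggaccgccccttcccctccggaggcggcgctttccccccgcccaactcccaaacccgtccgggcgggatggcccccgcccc

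Counts of 8 of the 9 members did not overlap between groups, each being higher in doxycycline samples, and 7 were called higher by the fit across all genes while 0 were called lower. At an unadjusted p under 0.05 the counts were 9 higher and 0 lower, and in DESeq2 7 higher and 0 lower. Of all tested genes 20.7% had groups that did not overlap in that direction and 21.0% in the other, while 13.8% were called higher and 15.5% lower. Since the members were chosen on this comparison, nothing is read from those counts. In such bulk samples a shift in the mix of cells and a change of RNA per cell cannot be told apart. Together the 9 took 0.586%, 0.560% and 0.596% of all counts in doxycycline replicates 1, 2 and 3, against 0.487%, 0.460% and 0.450% in DMSO replicates 1, 2 and 3. The median log2 fold change of the members was 0.31 and ran from 0.10 for TLN1 to 1.28 for AHNAK, beside a median of -0.000721 over all tested genes. Without DMSO replicate 2 and doxycycline replicate 1 the members' median was 0.24, and 7 were called higher. Over all tested genes that fit called 1621 higher and 1915 lower.

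**Figure D1:**
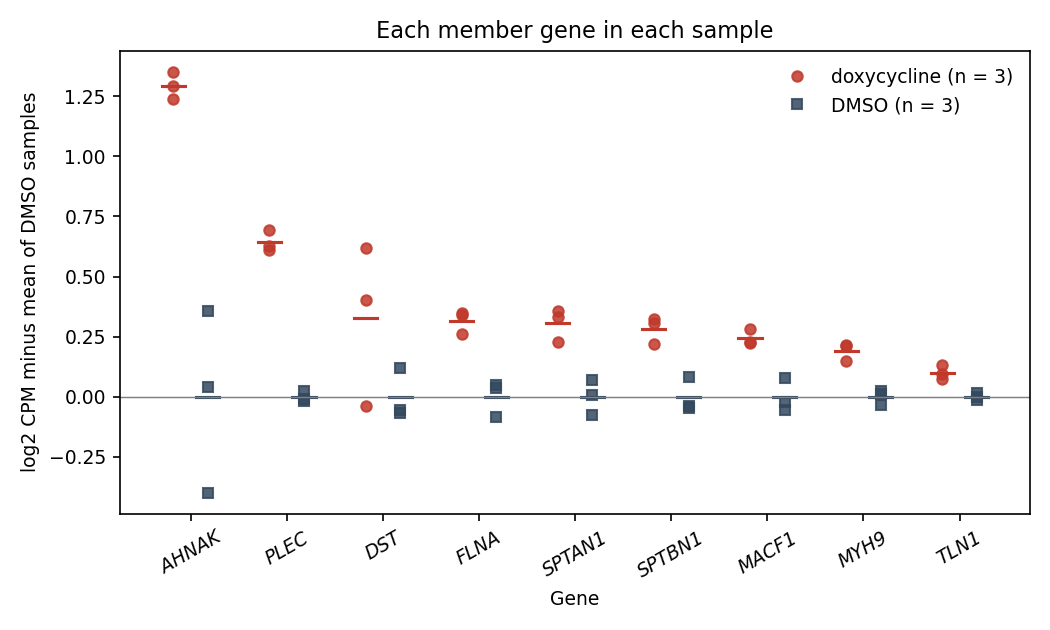
Points give log2 CPM (prior count 2) of each member gene in each sample, less the mean of the 3 DMSO samples, with doxycycline left of DMSO and short lines at group means. AHNAK and PLEC stand farthest above 0 in doxycycline samples, while for DST the lowest of the 3 doxycycline samples lies among the DMSO samples.

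Among the plakins, PLEC had 163, 161 and 171 CPM in doxycycline replicates 1, 2 and 3, against 107, 104 and 105 CPM in DMSO replicates 1, 2 and 3. All 3 doxycycline samples were above all 3 DMSO samples by more than the spread within either group, at 165 ± 5.08 CPM in doxycycline and 106 ± 1.61 CPM in DMSO samples (SD, n = 3 each). The log2 fold change was 0.64 (SE 0.049). MACF1, the microtubule and actin crosslinker, had 254, 255 and 264 CPM in doxycycline replicates, against 229, 209.5 and 214 CPM in DMSO replicates. Its groups did not overlap either, but the gap between the nearest samples was narrower, and the log2 fold change was 0.24 (SE 0.050). DST, which links filament systems in neurons, muscle and skin, was at 6.30, 3.96 and 5.42 CPM in doxycycline replicates and 4.44, 3.92 and 3.89 CPM in DMSO replicates. Doxycycline replicate 2 was level with the DMSO samples, so the groups overlapped, and DST was not called (log2 fold change 0.35, SE 0.146). Only 89 to 166 reads per library fell on DST, where counting error alone is up to 10.6% of a count. Without doxycycline replicate 2 DST was called higher at a log2 fold change of 0.52, and without doxycycline replicate 1 it stood at 0.20, not called. Without doxycycline replicate 1 and DMSO replicate 2 it stood at 0.17, also not called.

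AHNAK had the largest change of the members at one of the lowest levels. It stood at 6.72, 6.44 and 6.20 CPM in doxycycline replicates 1, 2 and 3, against 3.33, 1.94 and 2.66 CPM in DMSO replicates 1, 2 and 3. The doxycycline samples lay close together and the DMSO samples were spread more widely, with no overlap (6.46 ± 0.257 CPM in doxycycline and 2.65 ± 0.695 CPM in DMSO samples, SD, n = 3 each). The log2 fold change was 1.28 (SE 0.147), a fold of 2.43, and it ran from 1.07 to 1.49 as samples were left out. These values rest on 177, 169 and 166 reads in doxycycline samples and 84, 47 and 61 reads in DMSO samples.

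Both spectrin chains were among the most abundant members. SPTAN1, the alpha chain, had 1389, 1295 and 1416 CPM in doxycycline replicates, against 1158, 1109 and 1047 CPM in DMSO replicates (log2 fold change 0.31, SE 0.054). SPTBN1, a beta chain that pairs with it, had 1034, 963 and 1023 CPM in doxycycline replicates, against 875, 806 and 801 CPM in DMSO replicates (log2 fold change 0.28, SE 0.052). Neither gene overlapped between groups, and in both doxycycline replicate 2 was the lowest of its group and DMSO replicate 1 the highest of its own. These lowest and highest replicates were shared by PLEC, DST, FLNA, MYH9 and TLN1. SPTAN1 shares exon sequence on the opposite strand with WDR34, which had 24788 counts over the 6 samples beside 188456 for SPTAN1. The libraries keep strand, but whether the counting used it is not stated in any source read, so reads of such a pair may have been mixed.

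FLNA was the most abundant member, with 1709, 1612 and 1701 CPM in doxycycline replicates 1, 2 and 3, against 1389, 1380.0 and 1266 CPM in DMSO replicates 1, 2 and 3. Every doxycycline sample was above every DMSO sample, and the log2 fold change was 0.32 (SE 0.053). MYH9 had 637, 609 and 635 CPM in doxycycline replicates, against 558, 553 and 536 CPM in DMSO replicates, again without overlap, and a log2 fold change of 0.19 (SE 0.049). TLN1 had 629.9, 606 and 614 CPM in doxycycline replicates, against 581, 575 and 569 CPM in DMSO replicates. Its groups did not overlap, yet the log2 fold change of 0.10 (SE 0.048) was the smallest of the members, and TLN1 was not called. Upper-quartile scaling called TLN1 and DST too, at 0.15 and 0.40, so that 9 of 9 members were called higher with it and with library size alone. Over all 15492 tested genes, upper-quartile scaling called 2871 higher with a median of 0.05, and library size alone 2758 with a median of 0.04. With TMM that median was -0.000721, and 2137 were called higher. TLN1 overlaps exons of CREB3 on the opposite strand, a gene with 5133 counts beside 90500 for TLN1.

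In the authors' deposited table, which covers the same samples, the log2 fold changes of AHNAK, PLEC, DST and FLNA are 1.27, 0.63, 0.34 and 0.31. The authors' deposited table gives 0.30 for SPTAN1, 0.27 for SPTBN1, 0.23 for MACF1, 0.18 for MYH9 and 0.09 for TLN1. As in edgeR, TLN1 and DST are not past an adjusted p of 0.05 in the authors' deposited table. The other 7 members are called higher there, where 9.79% of 13767 genes are called higher and 15.6% lower in the authors' deposited table. DESeq2 run again on the counts called the same 7 members, at the same 9.79% of genes higher and 15.6% lower.

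Set against the longest transcript, the members fell into 3 tiers, an order that depends on the transcript length used. On a scale of CPM per kilobase of the longest transcript, FLNA averaged 197 ± 6.34 in doxycycline and 158 ± 8.01 in DMSO samples, and SPTAN1 173 ± 8.05 in doxycycline and 140 ± 7.06 in DMSO samples (SD, n = 3 each). SPTBN1, MYH9 and TLN1 followed at 98.4 ± 3.75, 83.0 ± 2.07 and 69.9 ± 1.41 in doxycycline samples and at 80.9 ± 4.02, 72.7 ± 1.55 and 65.2 ± 0.647 in DMSO samples, and no neighbours in this order overlapped. PLEC and MACF1 made the middle tier. They overlapped in doxycycline samples at 10.8 ± 0.333 and 10.4 ± 0.240 per kilobase, whereas in DMSO samples PLEC, at 6.92 ± 0.106, lay below MACF1, at 8.77 ± 0.418, without overlap. AHNAK and DST were lowest, at 0.344 ± 0.014 and 0.233 ± 0.053 in doxycycline samples, where their ranges were apart, and at 0.141 ± 0.037 and 0.182 ± 0.014 in DMSO samples, where they overlapped. Which transcripts the cells use is unknown from gene counts, and with the median length of each gene's protein-coding transcripts 8 of 9 levels moved by more than 1 SD, the annotated protein-coding transcripts of SPTAN1, MYH9 and AHNAK having median lengths of only 500.5, 789 and 584 bases. The tiers are lost with those lengths, where SPTAN1 (2730.0 in doxycycline and 2208 in DMSO samples) and MYH9 (795 in doxycycline and 696 in DMSO samples) stand above FLNA (203 in doxycycline and 163 in DMSO samples). AHNAK is then at 11.1 in doxycycline and 4.53 in DMSO samples, beside 11.3 in doxycycline and 7.20 in DMSO samples for PLEC, and MACF1 is at 59.4 in doxycycline and 50.2 in DMSO samples.

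**Figure D2:**
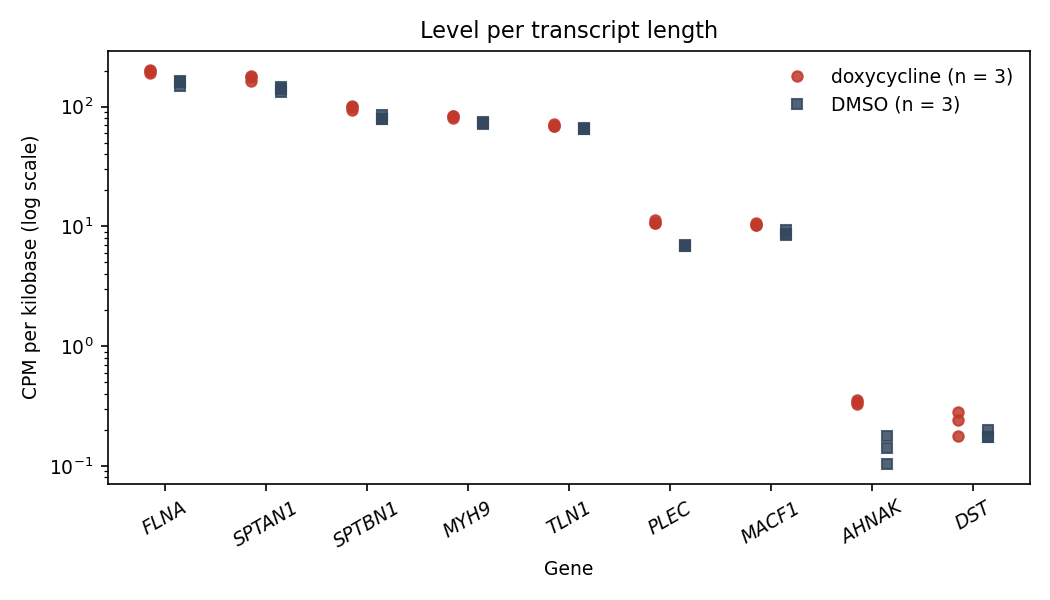
CPM per kilobase of the longest GENCODE 29 transcript, on a log axis, for each member in each sample, with doxycycline left of DMSO. FLNA and SPTAN1 are highest, PLEC and MACF1 lie near 10, and AHNAK and DST lie below 1 in every sample.

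Fold changes across all genes followed GC content and, at the long end, length. Tested genes were split into 10 bins of like size by each property. In the bin of lowest GC content the median log2 fold change was -0.13 and 2.66% were called higher, and in the bin of highest GC content it was 0.17 and 36.3% were called higher. Medians by length stayed between -0.04 and 0.01 in the first 9 bins and reached 0.05 in the longest, where 22.6% were called higher and 8.58% lower. Among the 817 other genes within the members' ranges of length (7554 to 24828 bases) and GC content (41.3% to 67.0%), 31.1% were called higher and 4.41% lower, with a median of 0.10. With the length range alone, 22.3% of 1307 other genes were called higher and 8.42% lower.

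**Figure D3:**
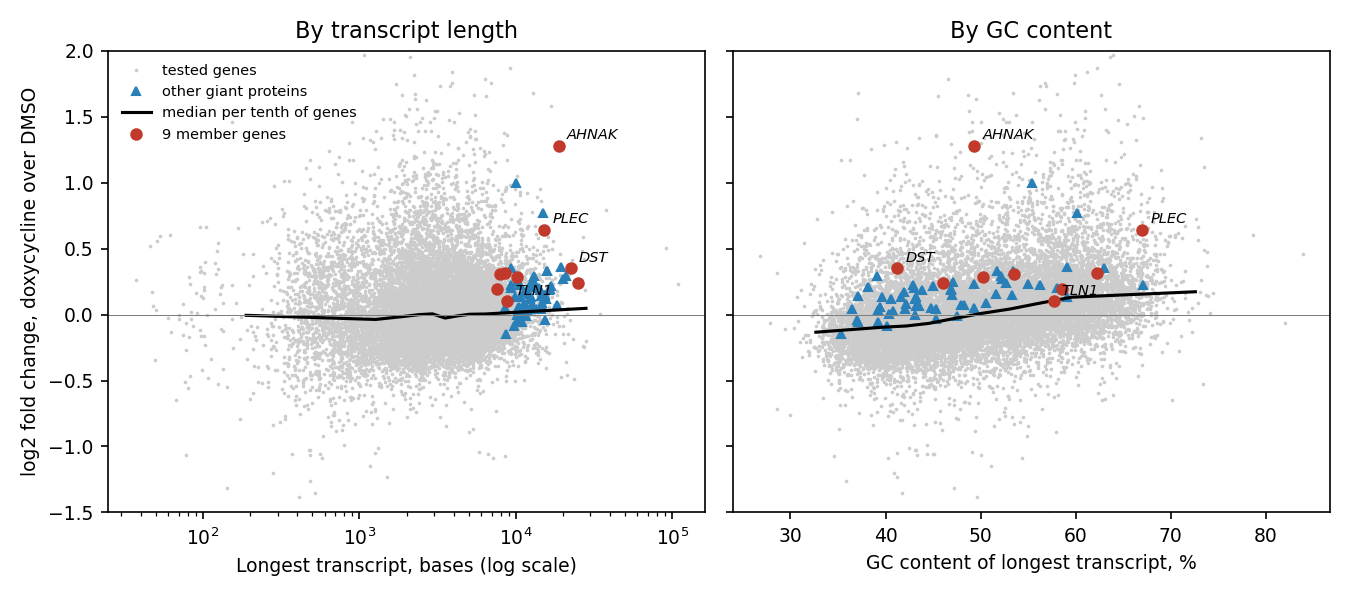
Log2 fold change, doxycycline over DMSO, of each tested gene against the length (left, log axis) and GC content (right) of its longest transcript; the black line joins medians of 10 bins of genes, triangles mark other giant proteins, and 17 genes beyond -1.5 or 2 are not drawn. The members lie at the long end, AHNAK and PLEC far above the line and TLN1 close to it.

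A smooth trend of GC content and length was fitted in each library and entered in the edgeR model as an offset. The correction takes out any true change that runs along GC content or length together with a technical one, and the 2 cannot be told apart here. For PLEC, long and richest in GC, the trend alone gave doxycycline samples a log2 surplus of 0.39, for FLNA 0.27, for TLN1 0.22 and for MYH9 0.21. For the less GC-rich members the trend came to 0.18 in AHNAK, 0.16 in MACF1, 0.14 in SPTAN1, 0.13 in SPTBN1 and 0.09 in DST.

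With both corrected, 4 of 9 members were called higher and 1 lower, where 10.8% of 15036 genes were called higher and 11.4% lower. AHNAK was higher by 1.10 (SE 0.142), PLEC by 0.26 (SE 0.040), SPTAN1 by 0.16 (SE 0.045) and SPTBN1 by 0.16 (SE 0.043). TLN1 was called lower, at -0.12 (SE 0.038). FLNA, MYH9 and MACF1 were not called, at 0.05 (SE 0.043), -0.02 (SE 0.039) and 0.08 (SE 0.038), nor was DST at 0.27 (SE 0.150). The members' median was then 0.16, and of the 817 genes of like length and GC content 12.6% were called higher and 12.2% lower. Each property corrected alone acted on different members: GC content alone took MYH9 to 0.09, not called, and left MACF1 at 0.30, whereas length alone took MACF1 to 0.10, not called, and left MYH9 at 0.16. GC content alone also called DST higher, at 0.46. It called 7 members higher, beside 12.9% of all genes higher and 13.1% lower, and length alone called 6, beside 16.0% higher and 14.5% lower. Few tested genes are as long as the largest members, 12 for MACF1 and 16 for DST, themselves included, so the length trend is thinly supported there.

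**Figure D4:**
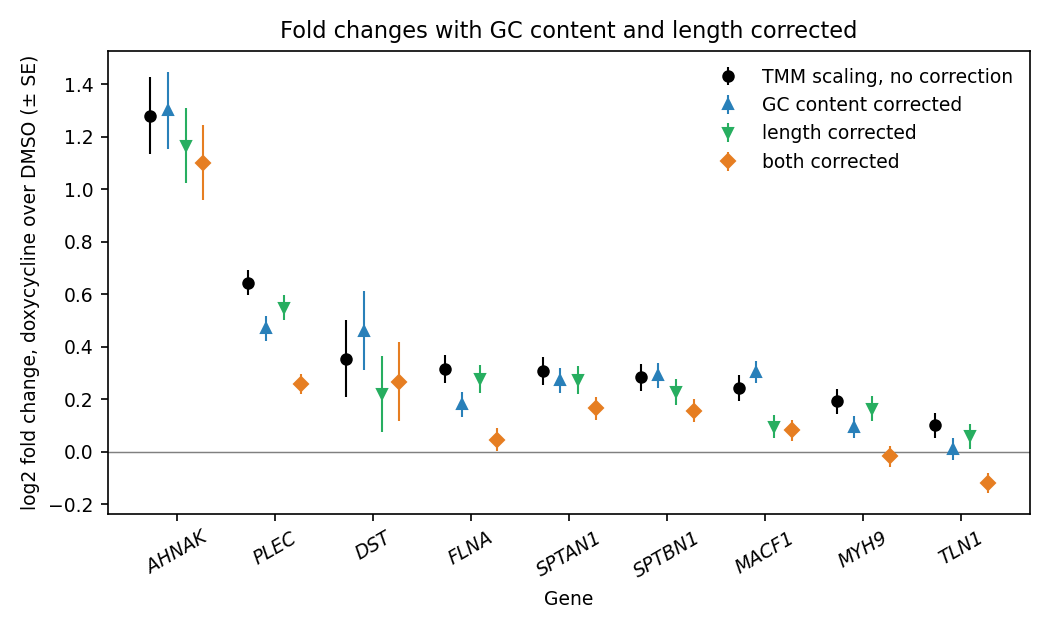
Log2 fold change of each member, doxycycline over DMSO, with its SE, without correction and with GC content, length or both corrected. AHNAK stays above 1 in all 4 fits, PLEC goes to 0.26 with both corrected, and TLN1 goes below 0.

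Relatives and partners of the members moved in both directions. Their lists were chosen from general knowledge, but with earlier results of these data known. Beside the list counts, 13.8% of all tested genes were called higher and 15.5% lower in edgeR. With both corrected these shares were 10.8% and 11.4%, and in DESeq2 9.79% and 15.6%. Whether any list differs from these shares was not tested. EVPL, envoplakin, was the sole tested plakin outside the members, with DSP, PPL and EPPK1 below the filter on low counts. It averaged 226 ± 10.2 CPM in doxycycline samples and 180.2 ± 6.45 CPM in DMSO samples (SD, n = 3 each), rose by 0.33 on the log2 scale (edgeR adjusted p = 3.28e-05) and was not called with both corrected (0.07). Of 13 tested genes of the spectrin skeleton 3 rose and 0 fell in edgeR, with a list median of 0.09, and 0 fell at an unadjusted p under 0.05 and in DESeq2. Among them SPTB, a beta chain known from red cells, rose by 1.05. SPTB averaged 1.61 ± 0.157 CPM in doxycycline samples and 0.775 ± 0.190 CPM in DMSO samples (SD, n = 3 each). It was also called with both corrected, at 0.80. Upper-quartile scaling called 5 of the 13 higher.

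Of 11 actin crosslinkers 3 rose and 2 fell, with a median of 0.11, beside 13.8% of all tested genes called higher and 15.5% lower. DESeq2, which gave FLNC no adjusted p, called 1 higher and 2 lower. FLNC, a filamin known from muscle, was at 0.669 ± 0.138 CPM in doxycycline samples and 0.180 ± 0.085 CPM in DMSO samples and rose by 1.87, and by 1.59 with both corrected (SD, n = 3 each). It was down to 0.083 CPM in DMSO replicate 2, so its fold change rests on very few reads. The alpha-actinin ACTN1 rose by 0.13, a call lost when any library but DMSO replicate 2 was left out (0.09 to 0.15), and the plastins PLS3 and LCP1, which bundle actin, fell by 0.27 and 0.17. With both corrected LCP1 fell by 0.11, ACTN1 rose by 0.12 and PLS3 was not called.

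Among the partners of talin, of 20 tested integrin linkers 8 rose and 2 fell, with a median of 0.19. With both corrected 4 rose and 3 fell, with a median of 0.06. For this list and the next, the shares of all tested genes were 13.8% higher and 15.5% lower, and 10.8% and 11.4% with both corrected. Without DMSO replicate 2 and doxycycline replicate 1, 7 rose and the median was 0.10. TNS1, a tensin that binds actin and integrin tails, averaged 17.5 ± 0.417 CPM in doxycycline samples and 11.1 ± 0.153 CPM in DMSO samples (SD, n = 3 each). TNS1 rose by 0.65 (edgeR adjusted p = 1.45e-06), the talin-binding KANK2 by 0.39 and the kinase PTK2B by 0.33, and with both corrected these rises were 0.41, 0.24 and 0.23. For myosin II, of 14 tested light chains, other heavy chains and regulators 0 rose and 3 fell in edgeR, with a median of -0.05. The count of rises was also 0 at an unadjusted p under 0.05 and in DESeq2. It was 1 without DMSO replicate 3, under either other scaling and with GC content alone corrected. The falls were the small GTPase RHOA by 0.24, the phosphatase subunit PPP1CB by 0.27 and the light chain MYL12B, which has a near-identical neighbour in MYL12A, by 0.19. RHOA averaged 571 ± 21.2 CPM in doxycycline samples and 676 ± 13.0 CPM in DMSO samples (SD, n = 3 each), and of the 3 it alone was called with both corrected, where it fell by 0.13.

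Of 10 tested linkers of membrane and cortex 2 rose and 1 fell, with a median of -0.02 (0.03 with upper-quartile scaling). In DESeq2, and without DMSO replicate 2 and doxycycline replicate 1, 1 rose. For this list and the next, the shares of all tested genes were 13.8% higher and 15.5% lower, and 10.8% and 11.4% with both corrected. Radixin (RDX), an ERM protein, fell by 0.33, and by 0.19 with both corrected. STK10, a kinase of ERM proteins, rose by 0.22 and PRX, a relative of AHNAK known from myelin, by 0.33, neither with both corrected, and the PRX call was lost without doxycycline replicate 1 (0.30), doxycycline replicate 3 (0.33) or DMSO replicate 2 (0.22). Of 9 intermediate filament and LINC genes, which anchor the nucleus, 5 rose and 1 fell, with a median of 0.19. The fall was lost without doxycycline replicate 1, without DMSO replicate 3 and under either other scaling. Without DMSO replicate 2 and doxycycline replicate 1, 2 rose and 0 fell, SYNE3 standing at 0.31 and not called, and with both properties corrected 3 rose and 2 fell, with a median of 0.02. LMNA, encoding lamins A and C, averaged 11.8 ± 0.728 CPM in doxycycline samples and 6.18 ± 0.535 CPM in DMSO samples (SD, n = 3 each) and rose by 0.93 (edgeR adjusted p = 2.68e-07), and by 0.79 with both corrected. SUN2, of the inner nuclear membrane, rose by 0.29 and the nesprin SYNE3 by 0.40. With both corrected SUN2 rose by 0.13 and SYNE3 was not called (0.21). The giant nesprins SYNE2 and SYNE1, named after their values were seen, rose by 0.31 and 0.19, and with both corrected SYNE2 rose by 0.20 and SYNE1 stood at 0.01.

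Of 13 microtubule linkers 3 rose and 1 fell, with a median of 0.06 (3 fell without DMSO replicate 2, and 2 without it and doxycycline replicate 1). For this list and the next, the shares of all tested genes were 13.8% higher and 15.5% lower, and 10.8% and 11.4% with both corrected. GAS2L1, which joins actin to microtubules, rose by 0.34, the dynein heavy chain DYNC1H1 by 0.27 and CLASP1, which stabilises microtubule ends, by 0.13. None of these rises was called with both corrected, and the CLASP1 call was lost when any single library was left out (0.12 to 0.14). MAPRE1, the end-binding protein EB1 that MACF1 is known to bind, fell by 0.28, and by 0.15 with both corrected. Of 15 genes of actin and the SRF response 4 rose and 3 fell, with a median of -0.09 (2 rose without doxycycline replicate 1, and 5 fell without DMSO replicate 1). With both corrected 3 rose and 6 fell, and in DESeq2 3 rose and 6 fell. The tropomyosin TPM2 and the calponin CNN2 rose by 0.47 and 0.44, and by 0.50 and 0.41 with both corrected. The actin monomer binder PFN1, a gene with processed copies that can share its reads, fell by 0.32. It averaged 724 ± 31.6 CPM in doxycycline samples and 905 ± 128 CPM in DMSO samples (SD, n = 3 each). DMSO replicate 1, at 765 CPM, lay close to doxycycline replicate 2, at 749 CPM. The log2 fold change of PFN1 ran from -0.43 to -0.23 as samples were left out.

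Genes of other giant proteins, most of them outside the cytoskeleton, were listed for their like transcript length. Of 57 tested, 27 rose and 1 fell, or 47.4% higher, with a median of 0.14, and with both corrected 9 rose and 2 fell, with a median of 0.04. Without DMSO replicate 2 and doxycycline replicate 1, 17 rose. Beside the 47.4%, 13.8% of all tested genes were called higher, and 31.1% of the 817 other genes in the members' length and GC ranges. DYNC1H1 is counted both here and among the microtubule linkers. The endocytic receptor LRP1 rose by 0.77, the histone methyltransferase KMT2D by 0.36 and NOTCH1 by 0.35. With both corrected LRP1 rose by 0.46, whereas KMT2D and NOTCH1 stood at 0.03 and 0.06.

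**Figure D5:**
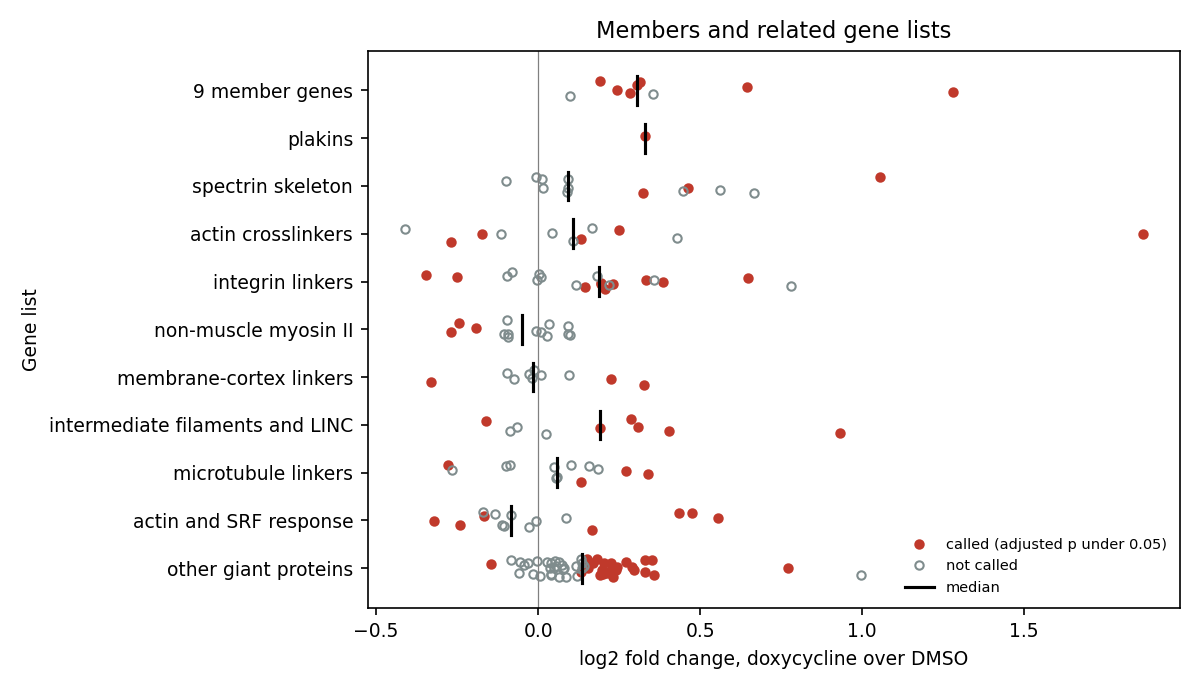
Log2 fold change, doxycycline over DMSO, of the 9 members (top row) and of each tested gene of 10 related lists, with filled points for genes called without correction and black lines at medians. Myosin II genes lie between -0.27 and 0.10, and the other giant proteins lie mostly above 0.

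Of 6098 non-member genes whose log2 CPM averaged 5 or more, the 5 whose centred log2 CPM over the 6 samples lay nearest to the members' mean profile were PIK3C2B, TOM1L2, UBR4, HECTD4 and BZRAP1, at Euclidean distances of 0.096 to 0.120. PIK3C2B, a lipid kinase, had 589.8, 539 and 581 CPM in doxycycline replicates 1, 2 and 3, against 460.4, 430.1 and 448 CPM in DMSO replicates 1, 2 and 3. UBR4 and HECTD4, both of giant ubiquitin ligases, have longest transcripts of 15906 and 15759 bases. All 5 were higher in every doxycycline sample than in any DMSO sample, a pattern that the search itself selects.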

How the data were processed

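Whole-number gene counts, deposited by the authors as raw values, covered 3 doxycycline and 3 DMSO samples. STAR 2.5.2a, featureCounts, DESeq2 1.12.4 and hg19 are named per the submitters' processing notes, without roles, and neither annotation nor strand setting is stated there. The authors' deposited table of their comparison holds, for each gene, the mean signal after normalization, the log2 fold change, its error, a Wald score and the raw and adjusted p-value.

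The members and gene lists were chosen with earlier results of these data known. Genes passing filterByExpr (15492) were scaled with TMM, and edgeR 4.0.16 in R 4.3.3 ran its quasi-likelihood test with group as the sole term and Benjamini-Hochberg adjustment over all tested genes. SE was taken from the log2 fold change and the F statistic. GC content and length come from each gene's longest GENCODE 29 transcript (GRCh38), matched for 97.1% of tested genes. The only coordinates printed are those of promoter windows, on GRCh38.p14, whereas the submitters' notes name hg19. In each library, the deviation of a gene's log2 CPM (prior count 2) from its mean was fitted, over genes averaging above 2, with natural splines of both properties (5 degrees of freedom each) and used as an offset for 15036 genes. The fits were tested on simulated data. Named are MYC, the members, the 3 genes of each list with the smallest p, all calls where a list had 5 or fewer, and the 5 nearest profiles, except a few genes that are not reported here. Alternatives were DESeq2 1.42.0, other scalings, no filter, samples left out, a replicate block and other offsets. No pair of libraries held identical counts.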

Additional observations from a re-analysis of the deposited data

How the results depend on the processing

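Leaving out any 1 sample kept 7 or 8 of 9 members called higher, with a median log2 fold change of 0.26 to 0.34. Over all tested genes, those fits called 1554 to 2022 higher and 1754 to 2344 lower. Without DMSO replicate 2 and doxycycline replicate 1 the members' median was 0.24, and with length alone corrected 0.23. With GC content and length both corrected, 4 members were called higher and 1 lower with a median of 0.16, and the counts of 4 and 1 held with 3 spline degrees of freedom (median 0.16) and with the replicate block added (median 0.16). In those 3 fits TLN1 stood at -0.12, -0.11 and -0.12 and MYH9 at -0.018, -0.014 and -0.018, both on the other side of 0 from the fit without correction. Over all genes, 1585 were called lower with upper-quartile scaling and 1348 higher with DESeq2, and the share of genes of like length and GC content called higher was 22.3% with the length range alone. The cause of these shifts was not tested. SYNE2 and SYNE1 were not among the genes followed through all alternatives. Of the remaining other genes named, none changed direction in any alternative.

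Same-numbered samples did not deviate together (r of -0.05 to 0.01), and no sample correlated best with its own number. The replicate block called 2006 genes higher and 2200 lower, and 7 members higher with a median of 0.31. Depth limits AHNAK and DST, each under 200 reads per library, and also FLNC and SPTB, which stood lower still in both groups.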
